A study of Drosophila melanogaster with 3 samples.

Results

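Binding of the tagged Pax transcription factor shaven (sv) was examined at 8 Drosophila genes that regulate the trachea and other epithelia: trh, tgo, vvl, bnl, btl, sima, grh and sr. The genes were taken by name, 8 of the 13945 protein-coding genes on the 6 arms 3L, 3R, 2L, 2R, 4 and X, and each was examined over its annotated span with 5 kb added on either side. Chromatin immunoprecipitation and sequencing gave a list of peaks for each replicate and for all of them pooled, from whole larvae of the third instar at the wandering stage, males and females together, in a single group of 3 replicates that the labels number as biological. All larvae came from 1 transgenic line that carries isoform RD of sv with GFP at its C-terminus. Per the sample descriptions the antibody was against GFP, although the labels' antibody field names sv. There was no second genotype, stage or tissue, the control was not analysed here, and read depth is unknown, so the values below are descriptions without a test of a contrast between samples. In whole larvae, binding in a few cells and weak binding in many cannot be told apart, and no cell type could be checked against markers.

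The tracheal system is a branched epithelial network that carries air to the tissues. Its fate is set in the embryo by Trachealess (Trh), a bHLH-PAS transcription factor that works as a dimer with Tango (Tgo), together with the POU domain factor Ventral veins lacking (Vvl). These factors turn on breathless (btl), the FGF receptor of tracheal cells, and the branches grow towards cells that secrete its ligand Branchless (Bnl). Similar (Sima), the fly counterpart of the hypoxia-inducible factor alpha subunit, also pairs with Tgo and in low oxygen raises FGF signalling in the trachea. Grainy head (Grh) is a factor of barrier epithelia that governs cuticle, junction and wound repair genes, and Stripe (Sr) is an EGR-type zinc finger factor that specifies the epidermal tendon cells to which muscles attach. Shaven belongs to the Pax2, Pax5 and Pax8 group of Pax proteins and is best known from the bristle lineage and from cone and pigment cells in the eye.

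Of the 8 genes, 5 had at least 1 summit of the optimal peak set, the set that passed the authors' reproducibility threshold. These were trh, grh, sr, bnl and sima. A summit is the base the authors' caller marked as the top of a peak, and the rank of a peak is its place by signal value within its list, with 1 for the strongest. The relaxed lists hold 30000 peaks each and reach far below the threshold. No optimal summit lay at vvl, btl or tgo. By the same rule 6348 of all 13945 protein-coding genes had a summit, which is 45.5%, and among the 4805 genes whose span lay in the range of the 8 genes, 3250 to 63488 bp, the share was 55.8%. The count of 5 of 8 is therefore close to what genes of such lengths showed in general. The 8 regions held 9 optimal summits in 314305 bp, a density of 2.86 per 100 kb, and the 6 arms together held 3823, also 2.86 per 100 kb. The genes with a summit were the 5 longest. All 5 genes of 20 kb or more had a summit, where 59.3% of protein-coding genes of that length did, and the 3 genes under 10 kb had none, where 43.2% did. These length limits were chosen after the values were seen. In narrower classes the share of protein-coding genes was 41.5% under 5 kb, where vvl and tgo belong, and 55.3% from 5 to 10 kb, where btl belongs. It was 59.1% from 20 to 40 kb and 58.5% from 40 to 80 kb, so above 5 kb it changed little with length.

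The sequences at the optimal summits in trh, sr, bnl and sima are shown because they are the DNA on which the calls rest. Each is the 101 bases centred on the summit in dm6, on the plus strand of the genome, with the summit base and 5 bases on either side in capitals. The 3 windows at grh are not shown. The sima window labelled near the start is not at a promoter: its summit lay 2976 bp downstream of the first sima start and 1635 bp upstream of the middle one.
trh, chr3L:377752-377852: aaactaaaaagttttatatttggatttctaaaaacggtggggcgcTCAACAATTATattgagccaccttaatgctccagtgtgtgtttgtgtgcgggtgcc
sr, chr3R:18125128-18125228: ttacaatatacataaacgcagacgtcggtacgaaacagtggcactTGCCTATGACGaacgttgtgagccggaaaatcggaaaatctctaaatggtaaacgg
bnl, chr3R:19831090-19831190: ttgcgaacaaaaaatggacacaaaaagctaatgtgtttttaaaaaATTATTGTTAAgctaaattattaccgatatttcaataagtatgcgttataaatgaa
sima upstream, chr3R:30056730-30056830: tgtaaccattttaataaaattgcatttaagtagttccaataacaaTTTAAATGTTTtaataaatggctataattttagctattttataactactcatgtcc
sima near the start, chr3R:30061237-30061337: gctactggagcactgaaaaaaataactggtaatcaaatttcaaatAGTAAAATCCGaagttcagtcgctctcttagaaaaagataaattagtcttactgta
sima internal, chr3R:30092767-30092867: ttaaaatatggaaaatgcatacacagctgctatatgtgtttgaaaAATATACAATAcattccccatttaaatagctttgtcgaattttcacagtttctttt

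Base composition differed widely among these windows. The sr and trh windows had 43.6% and 40.6% GC, against a median of 33.7% over the windows of all 3823 optimal summits. The bnl window had 23.8% GC, the sima windows had 21.8%, 31.7% and 27.7% in the order shown, and the grh windows had 36.6%, 19.8% and 21.8% in the order of the chromosome. The lowest, at the start of grh, was lower than all but 2.14% of the optimal windows.

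None of the 9 windows held any of 10 short motifs searched on both strands. For the factors encoded by the genes themselves, the site TACGTG, which Trh and Sima bind as dimers with Tgo, was in 2.2% of all optimal windows, and its shorter core ACGTG, which it contains, in 7.01%. The Grh palindrome AACCGGTT was in 0.0785% and its looser form AACNGGTT, which includes the palindrome, in 1.2%. The octamer ATGCAAAT of POU factors was in 1.67% and the EGR-type site CGTGGGCG in 0.157%. The core GTCACGC of the paired domain, the DNA-binding domain of Pax proteins, was in 0.366% of all optimal windows. The promoter site TATCGATA of DREF was in 2.01%, the GAGA repeat GAGAGAG in 1.28% and the E-box CACGTG, which contains the ACGTG core, in 1.15%. At least 1 of the 10 was in 13.1% of all optimal windows, so that a set of 9 windows with no match is a small sample, and no match says only that these letters were not within 50 bp of the summit. With 100 bp on either side, the 9 windows still held none, and the share over all optimal windows was 27.4%.

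**Figure D1:**
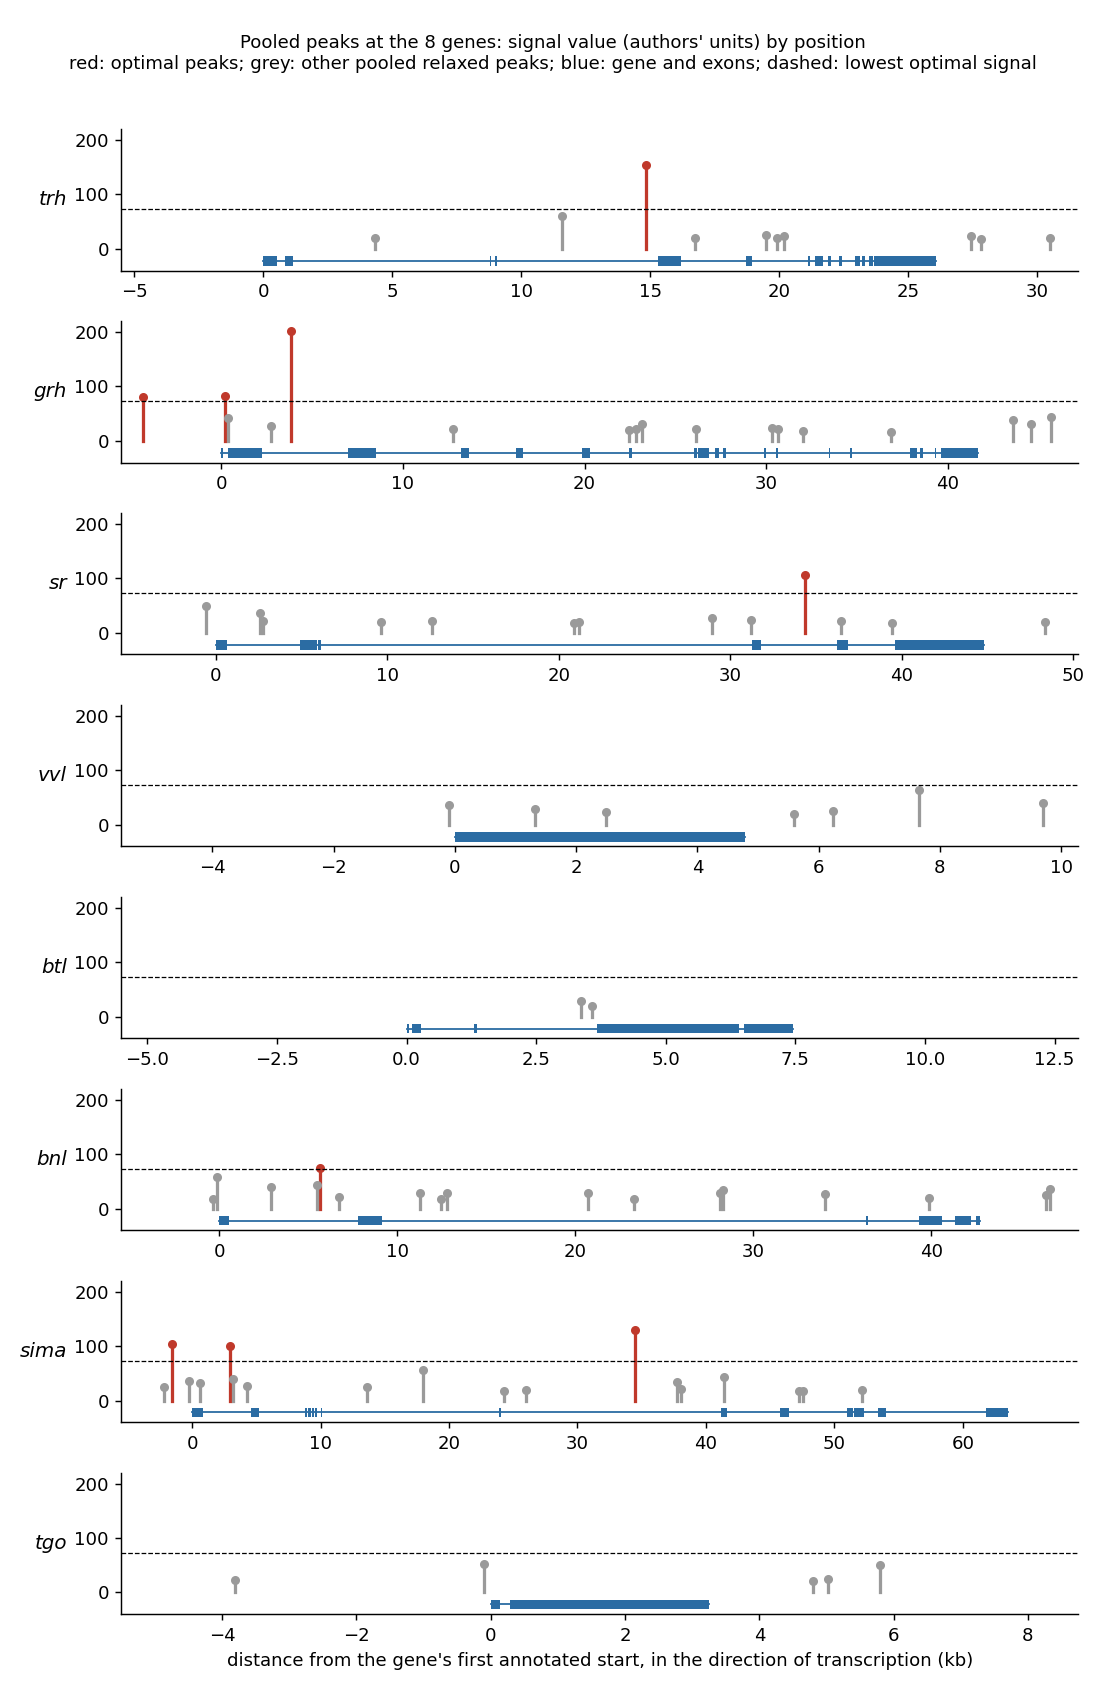
Signal value of the pooled peaks (vertical axis, authors' units) by distance from each gene's first annotated start in kb (horizontal axis), with 5 kb on either side, the gene and its exons drawn in blue below. Red stems are the 9 optimal peaks and grey stems the other pooled relaxed peaks; the dashed line is the lowest signal in the optimal set, 72.6, which no peak at vvl, btl or tgo reached.

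trh, which encodes the factor that commits cells to the tracheal fate, had 1 optimal summit, at an internal start of the gene. trh (FBgn0262139) lies on the minus strand of 3L from 366524 to 392633 and has 2 annotated starts, 1 used by 2 transcripts and the other, 15317 bp further in, by 5. Positions 377542 to 378061 bounded the peak. The summit, base 377802, fell 486 bp upstream of the internal start and inside intron 4 of the longest transcript. It ranked 1128 in the pooled data with a signal of 154. The nearest summit ranked 699 in replicate 1, 5189 in replicate 2 and 3050 in replicate 3, at 91, 28 and 17 bp. In replicates 2 and 3 a stronger summit, 171 and 182 bp from the pooled one, ranked 1934 and 1697. Replicate 1 thus ranked the site highest by either reading, and with the stronger summits all 3 replicates held it among their 3823 strongest peaks. A peak 3726 bp upstream of the same start, also in an intron, ranked 5016 in the pooled data and 7353, 4839 and 5987 in the replicates, outside the strongest 3823 in each. At the outer start the nearest pooled peak lay 4346 bp away and ranked 23214.

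tgo, which encodes the partner of both Trh and Sima, had no optimal summit. tgo (FBgn0264075) is the shortest of the genes, at 3250 bp, on the minus strand of 3R from 9016773 to 9020022. Its strongest pooled peak, from 9019864 to 9020383, had its summit 102 bp upstream of the only annotated start, ranked 5995 and had a signal of 52.1. The nearest summits ranked 7183, 7887 and 9871 in replicates 1, 2 and 3, at 27, 61 and 31 bp, so that the site was present and weak in each list. In each replicate the strongest peak of the tgo region lay elsewhere, at ranks 4178, 4183 and 6011 and at 4879 to 5824 bp from the tgo start. That stretch holds Kcmf1 and Sf3b5, neighbouring genes, and the second pooled peak of the region, rank 6355, had its summit 3 bp from a start of Kcmf1.

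vvl, the POU factor gene, had no optimal summit either, but its strongest peak ranked closest to the threshold of the 3 genes without a summit. vvl (FBgn0086680) runs from 6790158 to 6794941 on the plus strand of 3L. The peak, from 6797562 to 6798081, lay in intergenic sequence 7664 bp from the start and past the end of the gene, with pooled rank 4677 and a signal of 63. The nearest summits ranked 5492, 18417 and 3717 in replicates 1, 2 and 3, at 110, 57 and 6 bp. The strongest peaks in the region, which lay 314, 154 and 6 bp from that summit, ranked 3394, 4716 and 3717. Replicates 1 and 3 therefore held vvl among their strongest 3823 peaks and replicate 2 did not. At the vvl start a weaker peak, 89 bp upstream, ranked 10117 in the pooled data.

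bnl, the FGF ligand gene, had 1 optimal summit, and it stood within the strongest peaks of 1 replicate. bnl (FBgn0014135) lies on the minus strand of 3R from 19794073 to 19836817 with a single annotated start. Positions 19830880 to 19831399 bounded the peak, whose summit (base 19831140) was in the first intron, 5677 bp downstream of the start. Its signal of 75 gave it pooled rank 3648, near the weak end of the optimal set. The nearest summits ranked 2457, 5507 and 13123 in replicates 1, 2 and 3, at 35, 58 and 187 bp. No 2 replicates both held it, so bnl had no summit in any set of optimal peaks found in both of a pair of replicates, while trh, grh, sr and sima had one in each such set. In replicates 2 and 3 the strongest peak of the region was instead at the start, 104 and 152 bp upstream, at ranks 4276 and 5281. In the pooled data that start peak ranked 5106 with a signal of 58.6, and in replicate 1 its nearest summit ranked 13173. The 2 sites in bnl were thus ranked in opposite orders by replicate 1 and by the other replicates.

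btl, the receptor gene for Bnl, had the lowest-ranked strongest peak of the 8 genes. btl (FBgn0285896) spans 7458 bp on the plus strand of 3L, from 14075772 to 14083229. The pooled relaxed list held 2 peaks in its region, or 1.15 per 10 kb, against 2.24 per 10 kb over the 6 arms. The stronger, from 14078868 to 14079387 in an intron and 2063 bp past the internal start, ranked 14433 with a signal of 27.8. Replicate 1 had a summit 154 bp away at rank 21186 and replicate 2 had 1 at 168 bp with rank 20664. Replicate 3 had none within 200 bp. The strongest peak of replicate 2 in the region lay elsewhere and ranked 8431. Of the other 1506 protein-coding genes of 5 to 10 kb, 87.8% had a stronger peak by the same rule.

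sima, the gene for the hypoxia factor, had 3 optimal summits, and all of them were among the strongest peaks of all 3 replicates. sima (FBgn0266411) is the longest of the genes, 63488 bp on the plus strand of 3R from 30058311 to 30121798. Its strongest peak, from 30092557 to 30093076, had its summit in intron 7 of the longest transcript, 6703 bp upstream of the innermost of 3 annotated starts, with pooled rank 1541 and a signal of 129. The nearest summits ranked 2458, 975 and 1666 in replicates 1, 2 and 3 and lay 3, 7 and 5 bp away, the closest agreement in position of the 9. A peak from 30061027 to 30061546, in the first intron and 1635 bp upstream of the middle start, had pooled rank 2321 and a signal of 100, and ranked 2398, 2317 and 2720. The remaining peak, from 30056520 to 30057039 with pooled rank 2193 and a signal of 104, ranked 2366, 1798 and 1823. It lay 1531 bp upstream of sima, outside the gene, and 79 bp upstream of the start of CG7950, a neighbour that begins at the same base as Rpp14a. None of the 3 lay within 500 bp of a start of sima itself. The peaks nearest to those starts had pooled ranks of 10075, 15364 and 7714, so binding above the threshold was away from the sima promoters.

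grh, the barrier epithelium factor gene, had the strongest peak of the 8 genes. grh (FBgn0259211) lies on the plus strand of 2R from 17801132 to 17842820 and has 5 annotated starts. The strongest peak was narrow, from 17804832 to 17805058, with its summit in intron 2 of the longest transcript, 2094 bp downstream of the nearest grh start. It had a signal of 202 and pooled rank 638. Of the other 327 protein-coding genes of 40 to 80 kb, 17.4% had a stronger peak in their region. The nearest summits ranked 459, 1152 and 5177 in replicates 1, 2 and 3, at 22, 23 and 95 bp. In replicate 3 a second summit, 105 bp from the pooled one, ranked 1282, so all 3 replicates held the site among their strongest peaks.

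The other 2 optimal summits at grh were weaker, and each was below the strongest 3823 peaks of 1 replicate. The peak from 17801058 to 17801577, with its summit 186 bp downstream of the outermost grh start in a first intron of 273 bp, had pooled rank 3171 and a signal of 82.3. It ranked 3052, 3051 and 6337 in the replicates, so replicate 3 placed it below its strongest 3823. The peak from 17796564 to 17797083, with pooled rank 3318 and a signal of 80, ranked 5436, 3474 and 2904, so replicate 1 placed it below. This summit lay 4308 bp upstream of grh, within the neighbour Dhit and in an exon of the antisense RNA asRNA:CR45270. The remaining 4 starts of grh had no optimal peak within 500 bp.

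sr, the tendon cell regulator gene, had 1 optimal summit, inside the gene. sr (FBgn0003499) spans 44781 bp on the plus strand of 3R, from 18090803 to 18135583, with starts 31258 bp apart. Positions 18124918 to 18125437 bounded the peak, whose summit (base 18125178) was in an intron, 3117 bp downstream of the inner start, and had pooled rank 2131 and a signal of 106. The nearest summits ranked 3363, 3456 and 1398 in replicates 1, 2 and 3, at 7, 94 and 97 bp. All 3 replicates held it among their strongest peaks, replicate 3 with the highest rank. The next peak, 595 bp upstream of the outer start, ranked 6524 in the pooled data and 7182, 5018 and 13900 in the replicates.

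**Figure D2:**
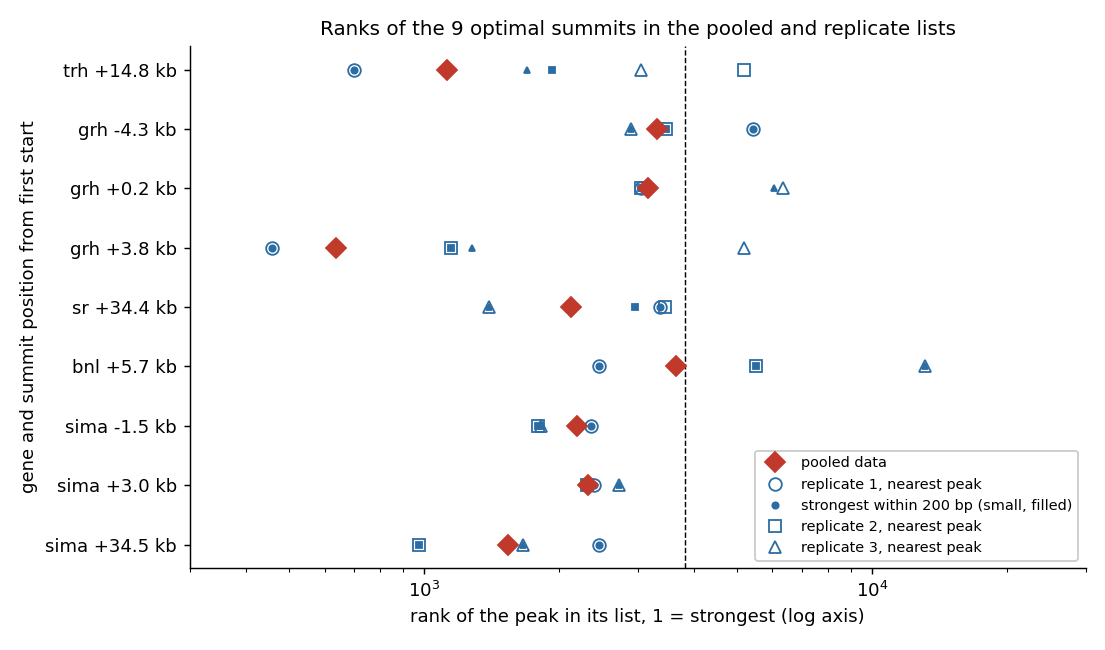
Rank of each of the 9 optimal summits (rows, with the distance from the gene's first start) in the pooled list (red diamonds) and in the 3 replicate lists (open symbols, nearest summit; small filled symbols, strongest summit within 200 bp) on a log axis, where 1 is the strongest peak. The dashed line marks rank 3823; all 3 rows of sima lie to its left in every list, while bnl has replicates 2 and 3 to its right.

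Across the 9 optimal summits, 6 were found among the 3823 strongest peaks of all 3 replicates within 200 bp, 2 in 2 replicates and 1 in 1 replicate. Over all optimal summits the share found in all 3 was 60.6%, and over the 3011 whose rank lay between those of the strongest and the weakest of the 9 (638 and 3648) it was 55.7%. The 6 were those of trh, sr and sima and the strongest of grh. With a match distance of 100 bp the count was 4, without the trh summit and the strongest grh summit. In the whole replicate lists, in which 8.27% to 8.47% of the bases of the 6 arms lie within 200 bp of a summit, all 9 had a match in every replicate. Since the optimal set was made from the pooled data, the replicates are not independent of it.

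Set beside other protein-coding genes of like length, the strongest pooled peak of each gene took a varied place. The share of those genes with a stronger peak was 26.1% for trh, 35.2% for sima, 45.3% for sr and 57.8% for bnl. It was 46.2% for vvl and 51.7% for tgo, so these 2 genes without an optimal summit were near the middle of the genes under 5 kb.

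The replicates alone gave similar counts. Replicate 1 had summits among its strongest peaks at 6 of the 8 genes, where 43.9% of protein-coding genes had them. Replicate 2 had them at 4, where 45.0% did, and replicate 3 at 5, where 46.3% did (mean 5 ± 1, SD, n = 3). trh, grh, sr and sima had a summit in all 3 replicates, vvl in replicates 1 and 3, bnl in replicate 1, and btl and tgo in none. The genes fall in this way into 4 held by every replicate, 2 near the threshold on which the replicates differed, and 2 below it throughout.

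**Figure D3:**
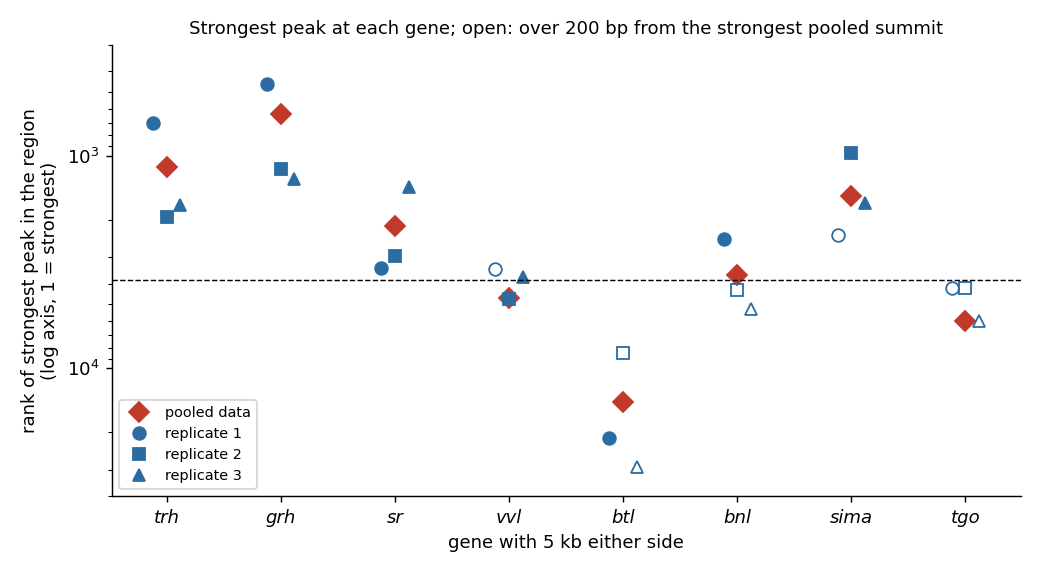
Rank of the strongest peak in each gene with 5 kb on either side (log axis, stronger peaks at the top) in the pooled list (diamonds) and in each replicate (circle, square and triangle for replicates 1, 2 and 3). Open symbols lie over 200 bp from the strongest pooled summit and the dashed line marks rank 3823, above which trh, grh, sr and sima stand in every list and below which btl and tgo stand in every list.

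Each summit was put in 1 position class, in which a start within 500 bp came before an exon and an exon before an intron. Of the 9, 3 were within 500 bp of an annotated start, where 58.9% of all optimal summits were, 5 were in introns away from a start, where 28.8% of all were, and 1 was in an exon of a non-coding RNA. Without regard to starts, 7 of the 9 lay in an intron of the longest transcript of the named gene that covers them. These shares were not tested, and the genes with a summit are all long. Of the 3, those at trh and grh were within 500 bp of starts of the genes themselves and that at sima was at CG7950. At grh another annotated start, not one of grh, was nearer, at 151 bp against 186 bp. That summit also lay within asRNA:CR45270. The 8 genes have 17 annotated starts, of which 2 had an optimal summit within 500 bp and 11 had any pooled relaxed peak within 500 bp. Over all 19607 annotated starts of protein-coding genes these shares were 17.7% and 51.8%, so that 2 and 11 of 17 are not far from the general level. Of the 9 summits, 7 lay inside the named gene, and for the same number the nearest protein-coding start was that of the named gene. How common either is at other genes with a summit is not given here. The pooled relaxed list held 89 peaks in the 8 regions, 2.83 per 10 kb, of which 47 were in the intron class, where 35.9% of all 30000 pooled peaks were, 23 near a start and 8 in coding exons.

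Genes that act with these regulators were examined by the same rule in 8 lists. Of 102 genes found by name, 65 had an optimal summit (63.7%), against the 45.5% of all protein-coding genes given above, and their median span was 16056 bp. Among protein-coding genes of 10 to 20 kb, the class of that median span, the share was 59.5%. The listed genes ranged from 1060 bp (kune) to 136839 bp (dpy), so that share is not matched to their lengths gene by gene. For 36 of the 65 the nearest protein-coding start was their own, and for 29 it was that of a neighbour. The same share over all protein-coding genes with a summit is not given here, so whether this is usual is unknown. The shares were not tested, and in general genes under 5 kb had summits less often (41.5%), with little change above that length.

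In FGF receptor signalling, 13 of 17 genes had a summit. The strongest was in an intron of Raf, which encodes a kinase downstream of the receptor, at rank 122, in a region with 12 optimal summits. pnt, the ETS factor gene that mediates the response, followed at rank 500, in an intron. sfl, which encodes an enzyme of heparan sulfate synthesis, followed at rank 644, at an intronic summit with the nearest start that of MCU. stumps, the adaptor of the FGF receptors, had its best summit at rank 1911, nearest to the start of CG7987, htl, the other FGF receptor gene, at rank 1261 and 327 bp upstream of its start, and sty, a feedback inhibitor gene, at rank 1243, in intergenic sequence. Dsor1, pyr, Sos and rl had no summit, and their strongest pooled peaks ranked 5078, 6595, 8455 and 29903. bnl, at rank 3648, thus ranked below the 13 genes with a summit and above those without. btl, at rank 14433, ranked above rl alone. The genes differ in length, and they were not matched for it here.

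Among bHLH-PAS genes and genes of the hypoxia response, 9 of 12 had a summit. gce, a receptor gene for juvenile hormone, had its strongest at rank 201, 551 bp upstream of its nearest start. Ldh, the lactate dehydrogenase gene, a target of Sima, had its strongest at rank 401, 166 bp upstream of its start. Next came tai, a coactivator gene of the family, at rank 552, with the nearest start that of CG9586. Hph, the prolyl hydroxylase gene that controls Sima, ranked 2099, with the summit 69 bp from its start. Vhl, whose product acts with it, had 1 at rank 2249, 85 bp upstream of the start of CG13220.

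In tracheal patterning and branching, 7 of 14 genes had a summit. Trl, which encodes the GAGA factor, had the strongest of all listed genes, at rank 23 in an intron. bs, the serum response factor gene of terminal tracheal cells, ranked 1146, with the summit 52 bp from its start, and jing, a zinc finger gene, had its strongest at rank 2070. kni, salm, esg, ttk, peb, rho and Egfr had none. In septate junction and tube size genes, 13 of 19 had a summit, with nrv2, a sodium pump subunit gene, at rank 192 (nearest start nrv1), Atpalpha, the catalytic subunit of that pump, at rank 684 and 341 bp upstream of its start, and vari, a scaffold gene, at rank 716 (nearest start Pomp).

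In the barrier and wound response, the group that includes known targets of Grh, 7 of 13 genes had a summit. kay, the Fos gene, was at rank 956, msn, a kinase gene of the JNK pathway, at rank 1220 (nearest start dos) and Cad96Ca, which encodes the receptor kinase Stitcher, at rank 1433 in an intron. Ddc, a cuticle tanning enzyme gene and a classic Grh target, had none, while ple, another tanning enzyme gene of the list, had its summit at rank 2743 (nearest start CG8519). In epithelial polarity, 7 of 12 had a summit, led by baz at rank 243, par-6 at rank 604 (nearest start chas) and crb at rank 921 in an intron. These 3 genes encode apical polarity proteins. In tendon cell genes, 9 of 11 had a summit, led by mew, an integrin subunit gene, at rank 486 (nearest start CG32639). Tsp, the thrombospondin gene, was at rank 564 (nearest start Nhe3) and slow at rank 634 (nearest start TP53INP). In these 3 leading cases the summit was nearest to the start of another gene.

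The POU domain family stood at the other end. None of its 4 genes outside the 8 had an optimal summit, and vvl had none either. The strongest pooled peaks ranked 10063 at nub, 14197 at pdm2, 10890 at pdm3 and 29396 at acj6, all weaker than the rank of 4677 at vvl. These genes are long, with a median span of 34826 bp, a length at which the share of genes with a summit was 59.3%. With 4 genes the count is a description.

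**Figure D4:**
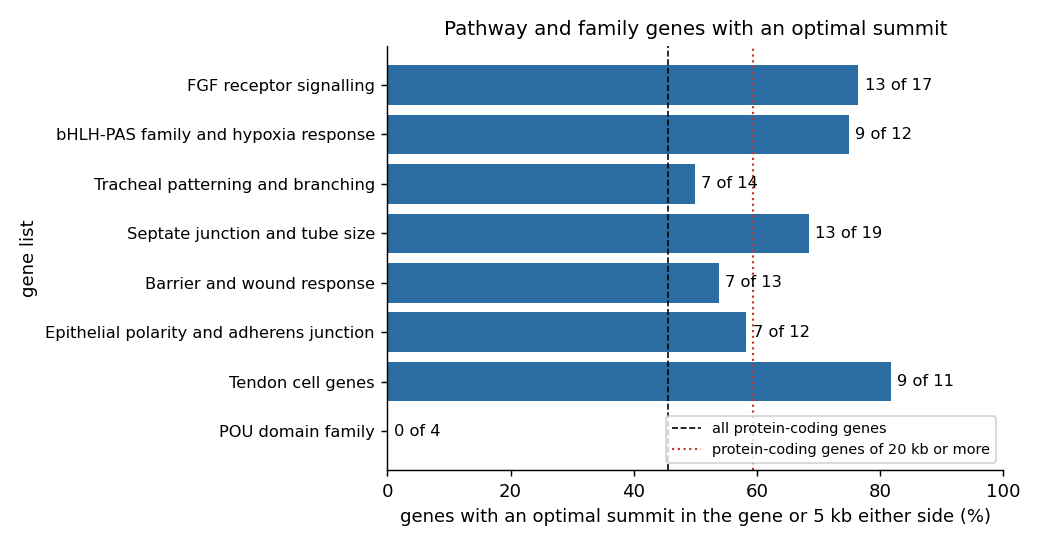
Share of genes with an optimal summit in the gene or 5 kb either side (horizontal axis, percent) for 8 lists of pathway and family genes, with the counts beside the bars. The dashed line is the share of all protein-coding genes, 45.5%, and the dotted line that of protein-coding genes of 20 kb or more, 59.3%; the tendon list reaches 9 of 11 and the POU list 0 of 4.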

How the data were processed

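The authors deposited peak lists in dm6 and dm3 for 3 replicates of 1 group. Per the deposited file manifests, a relaxed list of peaks and background was made for each replicate and for the 3 together against a control, and an optimal set was thresholded on reproducibility (IDR). Aligner, peak caller and threshold: not given in the sources used here. Peaks carry a deposited signal value made by the authors' caller, whose scaling is unknown, so it served only to rank peaks within a list. The deposited summit offset, another number counted in bases from the peak start, gave the summits. In dm6 the optimal set was the 3823 strongest of the 30000 pooled peaks. The dm3 lists were not used.

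Positions are in dm6, counted from 1, with the Ensembl release 115 annotation and the NCBI Release 6 sequence, which share its coordinates. A summit was matched to a replicate by the nearest summit within 200 bp, and was counted as found when any of the replicate's 3823 strongest peaks lay within 200 bp. Ranks come from the whole list. A start is any annotated transcript start. Scripts ran in Python 3.11.15 with pandas 2.3.3, and the counting was tested on simulated data with planted summits. Of 103 listed names 102 matched; dys matched several genes and was left out. The 8 genes, the lists and the motifs were chosen with earlier results of these data known. The text names the 8 genes, genes at their summits and from each list the genes (up to 3) whose summits ranked highest. Others of the lists (stumps, htl, sty, Hph, Vhl, Ddc, ple and those without a summit) were added once their values were known. The alternatives tried were other flanks, match distances, start distances and motif windows, the 1911 strongest optimal peaks, and leaving out each replicate.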

Additional observations from a re-analysis of the deposited data

How the results depend on the processing

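In the 1911 strongest optimal peaks, 3 of the 8 genes (trh, grh and sima) had a summit, with 3 summits in all, all 3 found in all 3 replicates and 1 within 500 bp of a start. In the gene body only, 40 of the 102 pathway genes had a summit, against 65 with 5 kb on either side. In neither case is the share over all protein-coding genes given here. A smaller peak set or region can only lower such counts at any gene, so these falls say nothing particular about the genes named. Every other alternative gave a count within 1.5 times the reported one. Several counts stood at that limit. The summits found in all 3 replicates were 4 with 100 bp between summits and 9 in the whole replicate lists, against 6 as reported. Without replicate 2, the optimal summits at the 8 genes were 6, against 9. Summits near a start were 2 with a limit of 200 bp, and 2 without replicate 1 or replicate 2, against 3. Leaving out 1 replicate at a time kept those optimal peaks that both remaining replicates held: 4 genes had a summit in each case, with 6 to 7 summits, 2 to 3 of them within 500 bp of a start, and 51 to 55 pathway genes. For summits required in both remaining replicates the count was 6 to 7. The share over all protein-coding genes is not given here for these sets either. No paired analysis was possible because there was 1 group. The depth behind each replicate is unknown, so a peak below the strongest 3823 is not shown to be absent.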

Other observations

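With 10 kb on either side of each gene, 1 further optimal summit was counted, at trh. It lay 5109 bp past the trh gene and 32 bp upstream of the start of Cdc5, a splicing factor gene, at pooled rank 3246, and was found among the strongest peaks of 1 replicate.

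The regions of sr and bnl hold 5 tRNA genes, and the 2 genes for glycine tRNA inside sr had no pooled peak within 500 bp. At bnl, a weak pooled peak (rank 9915, signal 36.0) had its summit inside the valine tRNA gene tRNA:Val-CAC-2-6, and another (rank 16105, signal 25.8) lay 22 bp from tRNA:Thr-AGT-1-7, within the span of bnl. Over all 290 annotated tRNA genes, 57.9% had a pooled relaxed peak within 500 bp and 5.52% an optimal one. The remaining tRNA gene of the bnl region, tRNA:Ala-AGC-2-11, had its nearest pooled peak 606 bp away, so that 2 of the 5 had a pooled peak within 500 bp. These genes were looked at after the peaks were seen.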
